A study of Mus musculus with 9 samples.

Results

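A group of 8 genes of local thyroid hormone handling was followed here, out of 38924 genes in the table. They are the deiodinases Dio2, Dio3 and Dio1, the receptors Thra and Thrb, the transporter Slc16a10, and Klf9 and Hr, which are direct targets of the hormone. The set was chosen by the CPM of Dio2, which stood out for its rise in Gata4 knockdown (KD) cells, with the other 7 added by function. The Dio2 values are therefore given as a description, without a test.

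The thyroid releases mostly thyroxine (T4), a prohormone. Type 2 deiodinase, encoded by Dio2, removes an outer-ring iodine inside the cell and makes the active hormone T3. Type 3 deiodinase inactivates both hormones, and T3 acts by binding nuclear receptors that sit on target genes. In the heart, T3 is known for raising the calcium pump and contractile genes of the myocyte, and Dio2 is a classical target of cyclic AMP (cAMP) signalling in brown fat and other tissues.

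RNA-seq was run on 9 libraries of primary cardiac fibroblasts from adult mice 8 to 10 weeks old, which carried the RosaCas9-EGFP allele on a C57BL/6 background. Every group therefore held Cas9, including the controls. Cells were grown for 3 days, sorted as CD45-CD31-CD90+, plated again, and 6 days later transfected with scrambled guide RNAs (control, n = 3), guides to Gata4 (Gata4 KD, n = 3) or guides to Tbx20 (Tbx20 KD, n = 3). Per the study's methods RNA was collected 3 days after transfection. In the study's check of transfection, mCherry was seen in only part of the cells. The replicates carry letters a, b and c, and the study calls them biological replicates. The labels do not say whether they came from separate animals, cultures or transfections, so the p-values measure the spread between these libraries. The cells were a bulk population edited by 2 guides per gene, grown in medium with fetal bovine serum. Hormone in that serum was not measured, and in bulk RNA fewer expressing cells cannot be told apart from less RNA per cell.

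The guides are shown because they define which cells are called KD. Both Gata4 guides lay in coding exons of Gata4-201 on GRCm38. The first matched exon 3 of 7 at chr14:63204711-63204730 on the minus strand, and the second matched exon 2 at chr14:63240581-63240600 on the plus strand. In the lines that follow the guide is in lower case and the adjacent PAM, read from the transcript, is in capitals.
Gata4 guide 1: cagagagtgtgtcaattgtgGGG
Gata4 guide 3: gcaggactgggctgtcgaagGGG

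Library totals were 31214828 to 41950397 expected counts. Gata4 stood at 165, 155 and 167 CPM (reads of the gene relative to the library's depth, scaled by TMM over all 9 libraries) in control libraries and at 54.0, 46.7 and 65.5 CPM in Gata4 KD. It fell by 1.55 on the log2 scale (SE 0.12, edgeR quasi-likelihood adjusted p = 0.00272). Tbx20 was lower in all 3 Tbx20 KD libraries (320 to 428 CPM against 720 to 1275 CPM in control), and its log2 fold change, -1.35 with an SE of 0.21, did not pass over all genes (edgeR adjusted p = 0.748). Fibroblast markers summed to 13634 to 15204 CPM in control, 9969 to 14060 CPM in Gata4 KD and 13166 to 16011 CPM in Tbx20 KD. Of these 7 markers Col1a1 (log2 fold change -0.35, SE 0.12, edgeR adjusted p = 0.423) and Vim (-0.20, SE 0.08, adjusted p = 0.53) were lower in every Gata4 KD library than in any control. Groups did not overlap for 13.8% of all genes in this comparison. Pdgfra went the other way (0.37, SE 0.14, edgeR adjusted p = 0.485), with overlapping groups, and it was the only marker above 0. Of 8 cardiomyocyte markers, 7 were under 1 CPM in every library, and Pln and Nppa were at 0.

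Dio2 (ENSMUSG00000007682, chr12:90724552-90738438, minus strand) was the main deiodinase transcript of these cells and the member that separated Gata4 KD from the rest. It stood at 4.92, 7.55 and 5.54 CPM in control libraries, 79.6, 86.9 and 71.6 CPM in Gata4 KD, and 6.50, 7.30 and 7.76 CPM in Tbx20 KD. The lowest Gata4 KD library was thus far above the highest of the other 6, and the control and Tbx20 KD ranges overlapped. In raw counts the groups held 635, 8274 and 821 Dio2 reads in total, so counting error was small in each of them.

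The level of Dio2 in Gata4 KD was 13.2-fold that in control (95% interval 10.1 to 17.2, log2 fold change 3.72, SE 0.17), and 11.0-fold that in Tbx20 KD (9.39 to 13.0, log2 fold change 3.47, SE 0.10). By log2 fold change it ranked 2 of 14468 genes against control and 1 of 14477 against Tbx20 KD. Those ranks describe how the gene was picked and carry no test. Between Tbx20 KD and control the log2 fold change was 0.27 (SE 0.17, interval -0.13 to 0.67), also without a test, since the levels of all 3 groups were in view when the gene was picked.

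**Figure D1:**
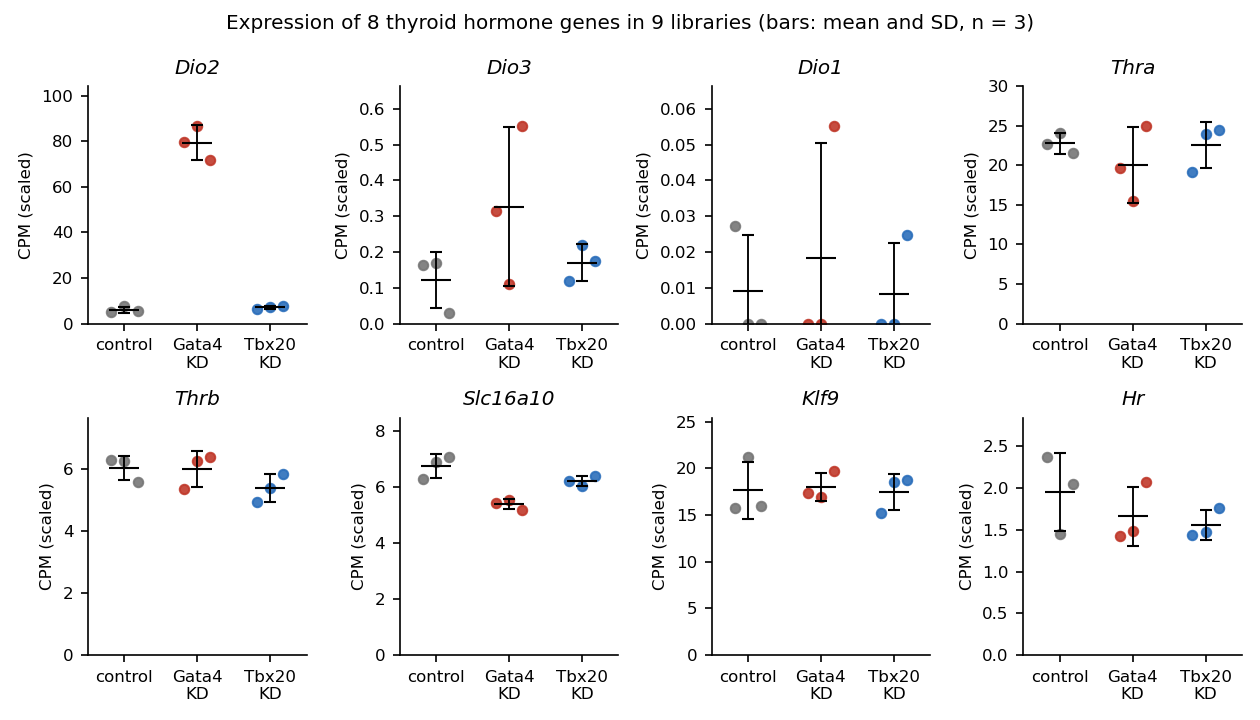
Scaled CPM (vertical axes, each from 0) of the 8 genes in the 9 libraries, by group on the horizontal axis. Points are libraries and bars are the mean and SD (n = 3). For Dio2 the 3 Gata4 KD libraries sit between 71.6 and 86.9 CPM, above all others, while the groups of Thra, Thrb, Klf9 and Hr overlap.

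Divided by exon length, the scale on which genes can be compared, Dio2 moved through the order of the members. In control cells Thra was highest at 4.94 ± 0.284 CPM per kb (SD, n = 3), followed by Klf9 at 3.67 ± 0.646. Dio2 came next at 1.03 ± 0.237, within its own SD of Slc16a10 at 0.919 ± 0.0569 and of Thrb at 0.817 ± 0.0526. Hr was lower at 0.283 ± 0.0669, and Dio3 and Dio1 lay at the bottom. In Gata4 KD cells Dio2 was the highest member at 13.6 ± 1.32 CPM per kb, with Thra at 4.34 ± 1.03 and Klf9 at 3.73 ± 0.314, which lay within 1 SD of each other. Of 22694 genes with any count, 51.9% lay below Dio2 in control, 84.1% in Gata4 KD and 53.5% in Tbx20 KD.

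Dio3, the inactivating deiodinase, and Dio1, the enzyme of liver and kidney, were too low to be tested. Dio3 (chr12:110279068-110281097) had 6, 6 and 1 reads in control, 10, 4 and 20 in Gata4 KD, and 5, 7 and 7 in Tbx20 KD. These ranges overlapped, and the 20 reads came from Gata4 KD replicate c alone. Dio1 (chr4:107291465-107307169) had between 0 and 2 reads in any library. Dio2 made up 96.3% to 99.9% of the reads of the 3 deiodinases in each library (lowest in control a, exact binomial 95% interval 92.5% to 98.5%, counting error only).

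The Dio2 promoter is shown because Dio2 is a known cAMP target and its sequence holds a cAMP response element (CRE). RefSeq places the start 600 bases upstream of the GENCODE start used for the counts. The 250 bases before the RefSeq start, chr12:90739039-90739288 on GRCm38, are given 5′ to 3′ on the minus strand, with the full CRE, TGACGTCA, in capitals.
Dio2 promoter: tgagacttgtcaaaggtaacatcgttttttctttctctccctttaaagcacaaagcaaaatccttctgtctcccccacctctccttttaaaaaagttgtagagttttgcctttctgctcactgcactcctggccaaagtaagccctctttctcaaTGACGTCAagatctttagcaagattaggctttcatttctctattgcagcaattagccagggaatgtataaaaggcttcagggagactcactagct

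The element lay 95 to 88 bases before the start. It occurred in 588 of 32851 RefSeq windows of the same kind (250 bases before to 50 after a start), or 1.79%. Searching both strands of these windows for GATA hexamers (the letters GATA with A or T before them and A or G after them) found none in the 250 Dio2 bases shown and 1 at 35 bases after the start, and 29.8% of all windows held at least 1. The T3 receptor hexamer AGGTCA, present in 16.3% of windows, was not found in the Dio2 window. Windows were at hand for 6 of the 8 genes, all but Thra and Hr. Dio2 alone among these 6 had the full CRE. The shorter CRE core TGACG, which the full element contains and 20.8% of all windows held, occurred for Dio2, Klf9 and Thrb, and AGGTCA for Thrb only. Such matches describe letters in a window and do not show a bound factor.

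Thra, which encodes the main T3 receptor of heart muscle and a splice form that does not bind T3, was the more abundant receptor gene. Its values (chr11:98740638-98769006) were 22.7, 24.1 and 21.5 CPM in control, 19.6, 15.5 and 25.0 CPM in Gata4 KD, and 19.2, 24.0 and 24.4 CPM in Tbx20 KD. The Gata4 KD libraries spread most, with replicates a and b below and replicate c above all control libraries. The log2 fold change was -0.19 in Gata4 KD (SE 0.16, edgeR adjusted p = 0.825) and -0.01 in Tbx20 KD (SE 0.11, adjusted p = 1). Counts per gene do not separate the splice forms, and the 3′ end of Thra overlaps Nr1d1 on the other strand.

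Thrb (chr14:17660261-18038090), the receptor best known from liver and pituitary, varied less. It stood at 6.28, 6.27 and 5.60 CPM in control, 5.35, 6.27 and 6.39 CPM in Gata4 KD, and 4.94, 5.39 and 5.85 CPM in Tbx20 KD. All groups overlapped in part. Its log2 fold changes were -0.01 in Gata4 KD (SE 0.13, edgeR adjusted p = 0.988) and -0.16 in Tbx20 KD (SE 0.12, adjusted p = 1). Per kb, Thra exceeded Thrb 3.97-fold to 7.15-fold in single libraries, with the lowest ratio in Gata4 KD replicate b.

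Slc16a10 (chr10:40033532-40142258) encodes a carrier of aromatic amino acids that also moves T3 and T4. It was the one other member whose Gata4 KD libraries did not overlap the rest, at 5.45, 5.56 and 5.20 CPM against 6.28, 6.91 and 7.08 CPM in control and 6.24, 6.05 and 6.40 CPM in Tbx20 KD. Against control this gave a log2 fold change of -0.32 (SE 0.12, interval -0.60 to -0.05), with an unadjusted p of 0.0277 and an edgeR adjusted p of 0.488, and against Tbx20 KD it was -0.21 (SE 0.09, edgeR adjusted p = 0.308). Neither passed the threshold of 0.05 over all genes. Non-overlap was seen for 13.8% of all genes in the first comparison and 23% in the second.

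Klf9 and Hr are direct T3 targets in many cell types. Klf9 (chr19:23141226-23168134), a zinc finger repressor, stood at 15.7, 21.2 and 16.0 CPM in control, 17.4, 16.9 and 19.7 CPM in Gata4 KD, and 15.2, 18.5 and 18.7 CPM in Tbx20 KD. Every Gata4 KD value lay inside the control range. The log2 fold change was 0.03 (SE 0.14, edgeR adjusted p = 0.977), with a 95% interval of 0.818-fold to 1.27-fold.

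Hr (chr14:70552212-70573548), a corepressor that binds the T3 receptor, was low throughout. It stood at 2.37, 1.45 and 2.05 CPM in control, 1.42, 1.49 and 2.07 CPM in Gata4 KD, and 1.44, 1.47 and 1.76 CPM in Tbx20 KD. These ranges overlapped. The log2 fold change in Gata4 KD was -0.24 (SE 0.26, edgeR adjusted p = 0.861), with an interval of 0.564-fold to 1.28-fold.

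Of the 7 members other than Dio2, 5 could be tested and none passed in Gata4 KD against control, where 0.38% of all genes did (55 of 14468). None passed in Tbx20 KD against control (0.00687% of all genes, 1 of 14547) or in Gata4 KD against Tbx20 KD (1.44%, 208 of 14477). DESeq2, limma-voom and edgeR's exact test also called none of the 5 in any comparison. At an unadjusted p under 0.05 the count was 1 of 5 (Slc16a10) in Gata4 KD against control, where 8.54% of all genes reached it. It was 0 in Tbx20 KD against control (2.69% of all genes) and 0 between the KDs (16.7%).

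A wider list of T3 targets was then examined. It held 27 further genes, of which 18 had enough reads, so that 20 of 29 were tested with Klf9 and Hr. The 9 without enough reads included markers of other tissues such as Myh6, the T3-induced myosin of the myocyte, and Pck1, which was at 0. None of the 20 passed in any comparison by edgeR. Few genes of any kind did, 0.38% in Gata4 KD against control, 0.00687% in Tbx20 KD against control and 1.44% between the KDs. In Gata4 KD against control 10 lay above 0 and 10 below, and the median log2 fold change was -0.00, beside -0.02 over all genes tested. The upper bound of the 95% interval was under 1.5-fold for 19 of the 20, and the exception, Hif1a, the hypoxia factor, reached 1.51-fold.

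Among the tested targets, Atp2a2, the calcium pump of the sarcoplasmic reticulum, stood at 542, 553 and 507 CPM in Gata4 KD against 473, 499 and 457 CPM in control, or 0.16 on the log2 scale (SE 0.08, edgeR adjusted p = 0.65). All 3 Gata4 KD libraries were above all 3 controls, and the difference did not pass. Mbp, a myelin gene, differed by -0.48 on the log2 scale (SE 0.26, edgeR adjusted p = 0.702) at 1.26 to 2.56 CPM in these libraries.

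At an unadjusted p under 0.05, 1 of the 20 targets passed in Gata4 KD against control (8.54% of all genes), 0 in Tbx20 KD against control (2.69%), and 4 in Gata4 KD against Tbx20 KD (16.7%). In that last comparison Atp2a2 was higher by 0.24 on the log2 scale (SE 0.06, edgeR adjusted p = 0.105). DESeq2 called Atp2a2 and Hif1a there, among 743 genes over the whole table.

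**Figure D2:**
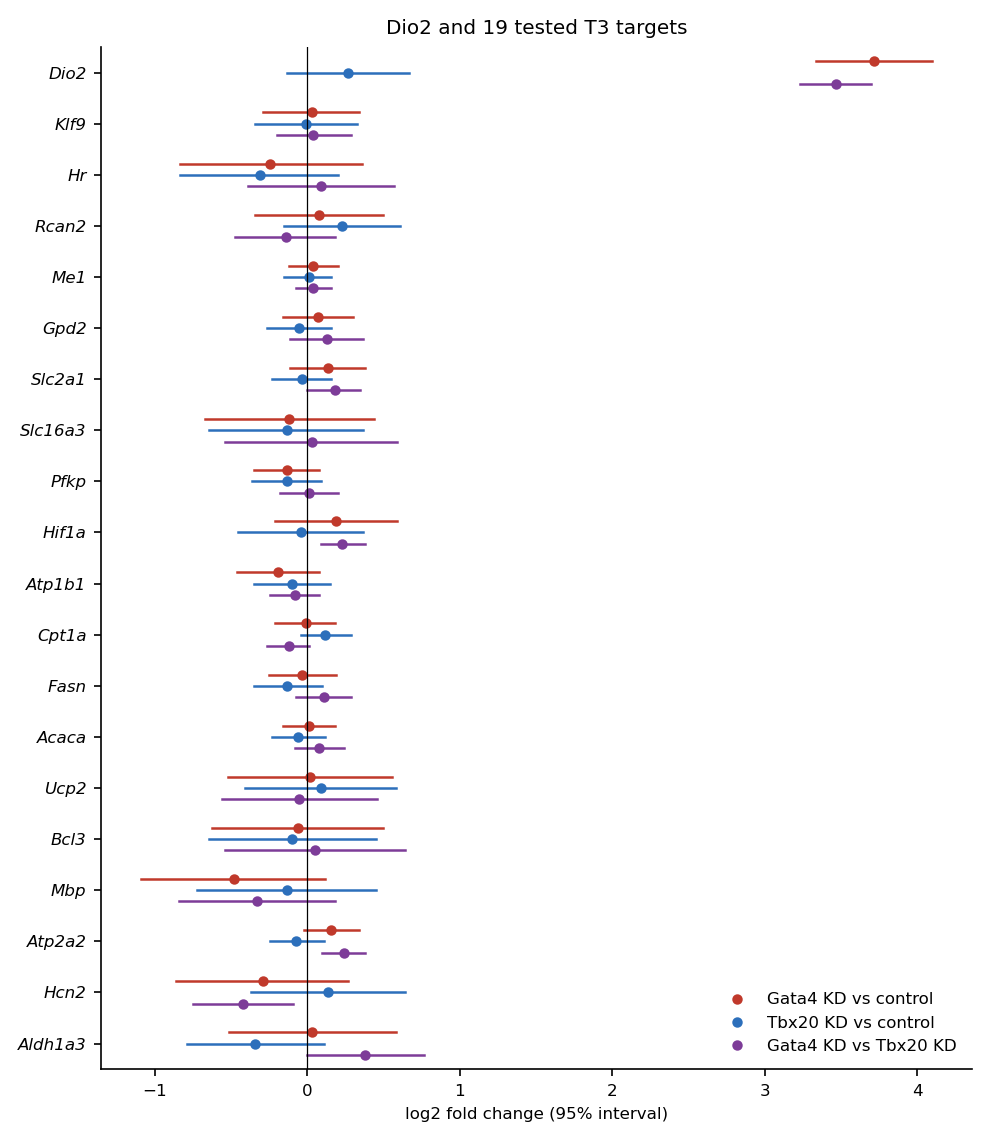
Log2 fold change (horizontal axis, points) with its 95% interval (lines) for Dio2 and 19 of the 20 tested T3 targets, in each of the 3 comparisons. The T3 targets lie between -0.48 and 0.38, and Dio2 at 3.72 and 3.47 in the comparisons of Gata4 KD.

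The machinery around the deiodinases showed no gene called by edgeR either (0.38% of all genes were called in Gata4 KD against control). Deiodinase turnover covers the ubiquitin ligases and deubiquitinases that set how long type 2 deiodinase lasts. All 8 of its genes were tested, with a median log2 fold change of 0.05 in Gata4 KD against control, and March6, a ligase of the endoplasmic reticulum, had the smallest p (log2 fold change 0.20, SE 0.11, edgeR adjusted p = 0.684). Ube2j1 (0.14, SE 0.11) and Usp33 (0.11, SE 0.09) followed.

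Deiodinases carry selenocysteine, and the 16 genes for selenoproteins and their synthesis were all tested. In Gata4 KD against control 14 of the 16 lay below 0, with a median log2 fold change of -0.10 beside -0.02 over all genes. None passed, and none reached an unadjusted p under 0.05, which 8.54% of all genes reached. Gpx4 and Gpx1, peroxidases rich in these cells, had log2 fold changes of -0.21 (SE 0.11) and -0.19 (SE 0.12), and Txnrd1, a thioredoxin reductase, had 0.21 (SE 0.15), with edgeR adjusted p of 0.702, 0.727 and 0.773.

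Receptor partners are the RXR dimer partners, corepressors and coactivators of the T3 receptors. Of 16 genes 15 were tested, with a median log2 fold change of 0.06 in Gata4 KD against control. Med1 and Ep300, coactivators, both stood at 0.16 (SE 0.08 and 0.09), with edgeR adjusted p of 0.666 and 0.7. They were among 3 of the 15 that did not overlap control, all higher (20%, beside 13.8% of all genes). Transport and binding genes were mostly silent, with 5 of 12 tested. Crym, a cytosolic T3-binding protein, was at most 1.33 CPM in any library, and its log2 fold change was -0.82 (SE 0.46, edgeR adjusted p = 0.705). Slc7a8, an amino acid carrier, had -0.26 (SE 0.23, adjusted p = 0.833).

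Over these lists and the 7 members, 67 of 86 genes were tested. None passed in any of the 3 comparisons by edgeR, where 0.38%, 0.00687% and 1.44% of all genes did. The median log2 fold changes were -0.02 in Gata4 KD against control, -0.04 in Tbx20 KD against control and 0.01 between the KDs. Unadjusted p under 0.05 was reached by 2 (2.99%), 0 and 11 (16.4%) of the 67 genes, beside 8.54%, 2.69% and 16.7% of all genes, so the share between the KDs was near the background. Of those 11 between the KDs 10 were higher and 1 lower, beside 1333 and 1089 of all genes. By list they were 3 of 8 turnover genes (37.5%), 4 of 15 receptor partners (26.7%) and 4 of 18 T3 targets (22.2%). The selenoprotein, transport and member genes gave 0. Groups did not overlap for 7 (10.4%), 4 (5.97%) and 16 (23.9%), beside 13.8%, 6.74% and 23% of all genes. DESeq2 and edgeR's exact test each called 0, 0 and 3 of the 67, with Med1, Hif1a and Atp2a2 in the former and Gpx3 and Crym among the 3 in the latter. Between the KDs these methods called 743 and 1054 genes over the whole table.

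Genes that cAMP is known to raise were taken as a second list, since the Dio2 promoter holds a CRE. The list was chosen with earlier results of these data known. cAMP was not measured, and its part in the Dio2 level was not tested. All 13 were tested. In Gata4 KD against control 12 of the 13 lay above 0, the median log2 fold change was 0.29 beside -0.02 over all genes, and 8 did not overlap control (61.5%, beside 13.8% of all genes), all 8 of them higher. Unadjusted p under 0.05 was reached by 6 (46.2%, beside 8.54% of all genes), and 1 passed after adjustment over all genes (0.38% of all genes passed). In Tbx20 KD against control 12 of the 13 lay below 0 with a median of -0.12, and none passed by edgeR, DESeq2 or limma-voom, with 1 (Atf3) at an unadjusted p under 0.05. These 2 comparisons share the control libraries. Between Gata4 KD and Tbx20 KD all 13 lay above 0, the median was 0.45, and 2 passed (1.44% of all genes passed). This last comparison reuses the KD libraries of the other 2, so it is not independent of them.

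Nr4a1, an orphan nuclear receptor and immediate early gene, was the gene that passed against control. It stood at 36.1, 42.3 and 42.2 CPM in Gata4 KD, 19.6, 26.0 and 24.0 CPM in control, and 23.4, 11.9 and 16.0 CPM in Tbx20 KD. Every Gata4 KD library was above the other 6. The log2 fold change was 0.79 against control (SE 0.12, edgeR adjusted p = 0.0493) and 1.23 against Tbx20 KD (SE 0.22, edgeR adjusted p = 0.0464).

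Pde4d, a phosphodiesterase that degrades cAMP and is itself induced by it, stood at 26.5, 26.7 and 24.5 CPM in Gata4 KD, 18.7, 17.4 and 17.0 CPM in control, and 17.0, 16.1 and 15.9 CPM in Tbx20 KD. It too separated Gata4 KD from all other libraries. The log2 fold change was 0.66 against Tbx20 KD (SE 0.07, edgeR adjusted p = 0.0069) and 0.55 against control (SE 0.09, edgeR adjusted p = 0.0535). Nr4a2, a receptor of the same family as Nr4a1, had 0.62 against control (SE 0.16, adjusted p = 0.247).

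These calls sat close to the threshold and moved both ways with the setting. Against control the count of 1 ranged from 0 to 4 over other settings and from 0 to 3 with 1 library left out, and between the KDs the count of 2 ranged from 1 to 6 and from 0 to 7. Over all genes the calls ranged from 5 to 446 and from 6 to 189 against control, and from 101 to 1054 and from 22 to 801 between the KDs. Pde4d against control passed in 4 of 8 other settings (smallest adjusted p 0.000126, with DESeq2) and without control b (0.0451). Leaving out any 1 library other than control b turned the adjusted p of Nr4a1 against control to between 0.098 and 0.204, and leaving out Gata4 KD a or b or Tbx20 KD b or c turned that against Tbx20 KD to between 0.125 and 0.221. Pde4d against Tbx20 KD lost its call, at adjusted p between 0.0561 and 0.0644, without Gata4 KD a, Tbx20 KD b or Tbx20 KD c. Nr4a1 against control also missed the threshold with the replicate block (adjusted p = 0.118), all 9 libraries in 1 fit (0.132) or a filter of 1 CPM in at least 2 libraries (0.0511), and against Tbx20 KD with the block (0.0827) or library size alone (0.0513). With 1 library left out the fold changes kept their direction (0.68 to 0.88 and 1.03 to 1.52 for Nr4a1, 0.64 to 0.69 for Pde4d). Of the 13 genes, 11 had a promoter window. Areg and Dusp1 held the full CRE, and 9 held the core.

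**Figure D3:**
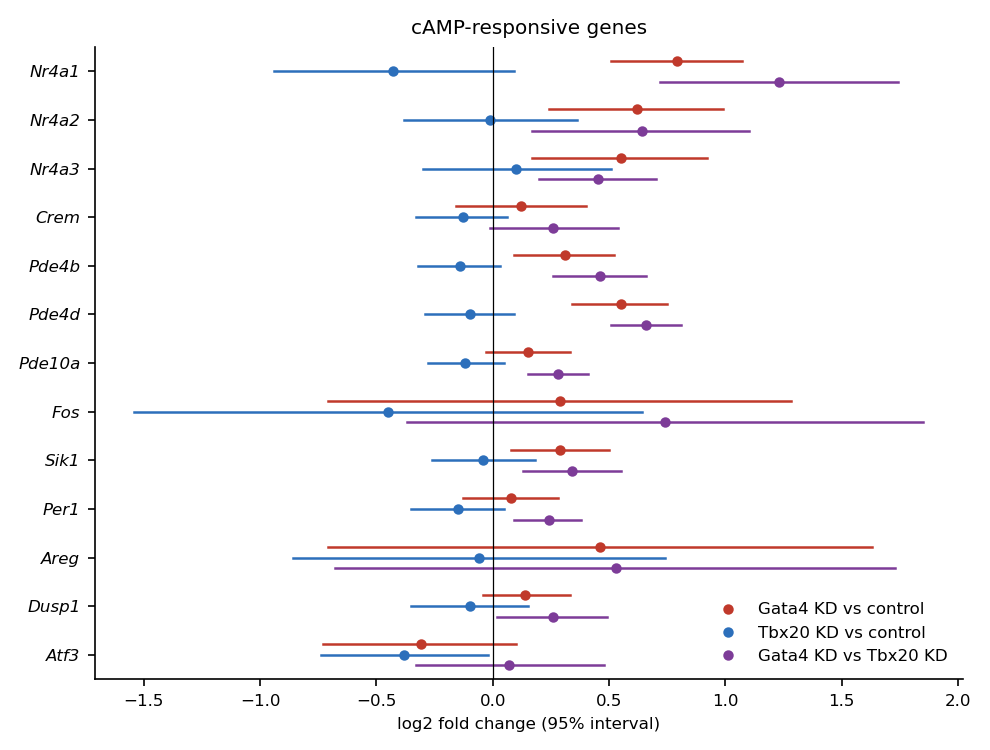
Log2 fold change (horizontal axis, points) with its 95% interval (lines) for the 13 cAMP-responsive genes in each of the 3 comparisons. Between Gata4 KD and Tbx20 KD all 13 lie above 0, from 0.07 for Atf3 to 1.23 for Nr4a1.

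The genes with a pattern most like that of Dio2 were ranked by Pearson r of log2 CPM over the 9 libraries, among 10032 genes. The libraries fall into Gata4 KD and the rest, so r here ranks how cleanly a gene separates the same libraries, and it carries no p. Tpbg, a membrane glycoprotein, had the highest r (0.998). It stood at 42.6, 45.1 and 42.3 CPM in Gata4 KD and between 23.1 and 26.4 CPM in the other libraries. Tmcc3 (r = 0.991), Cyp26b1 (0.985) and Frk (0.982) followed, with log2 fold changes against control of 0.63 (SE 0.08), 1.40 (SE 0.09) and 1.07 (SE 0.13). Cyp26b1, which breaks down retinoic acid, went from 61.8 ± 6.04 CPM in control to 163 ± 7.78 CPM (SD, n = 3).

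The lowest values of r belonged to Ces2g (-0.993), a carboxylesterase, and Tnnt2 (-0.99), cardiac troponin T. Tnnt2 stood at 8.88, 7.65 and 8.30 CPM in Gata4 KD and between 21.0 and 30.1 CPM elsewhere. Gata4 itself had r = -0.974. Among the members r was -0.862 for Slc16a10, -0.448 for Thra, 0.249 for Thrb and 0.193 for Klf9.

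**Figure D4:**
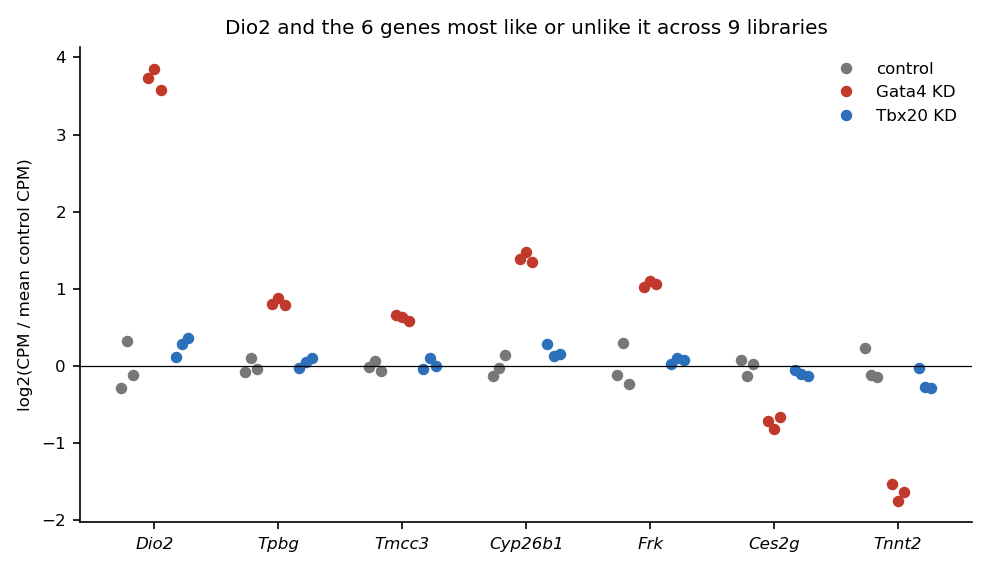
Log2 of CPM over the mean control CPM (vertical axis) for Dio2 and the 6 genes most like or unlike it, with 1 point per library, by group. The Gata4 KD points of each gene lie apart from the other 6 libraries, above them for Tpbg, Tmcc3, Cyp26b1 and Frk and below them for Ces2g and Tnnt2.

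Around Dio2, 14 other genes lay within 1000 kb and 6 of them were tested against control in Gata4 KD, with none called. The nearest, Gm26512, is a noncoding gene that starts inside the first exon of Dio2 on the other strand. It averaged 0.86 CPM in Gata4 KD, 0.452 CPM in control and 0.377 CPM in Tbx20 KD, and its Gata4 KD libraries lay above all others. Its log2 fold change against control was 0.91 (SE 0.35, edgeR adjusted p = 0.49). Per the study's methods reads were counted by strand, and the share of reads on the wrong strand was not measured. Tshr, the receptor for thyroid-stimulating hormone, lies 646 kb away and averaged 0.279 CPM in Gata4 KD and 0.387 CPM in control (log2 fold change -0.47, SE 0.38, adjusted p = 0.806).

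Some markers of other cells moved with the Gata4 KD group. The summed level of 6 mesothelial markers was 8.91 to 16.2 CPM in Gata4 KD, 24.9 to 48.4 CPM in control and 26.4 to 43.0 CPM in Tbx20 KD, with 2 of the 6 under 1 CPM throughout. Lrrn4, a mesothelial membrane protein, carried most of this difference, at 2.74, 2.09 and 2.32 CPM in Gata4 KD against 32.5, 15.7 and 26.3 CPM in control (log2 fold change -3.38, SE 0.27, edgeR adjusted p = 0.00272). Without it the sums overlapped, at 6.58 to 14.1 CPM and 9.21 to 16.0 CPM. Of the 4 markers tested, 3 did not overlap control, all of them lower (75%, beside 13.8% of all genes). Besides Lrrn4 these were Upk3b (log2 fold change -1.51, SE 0.40, edgeR adjusted p = 0.247) and Upk1b (-1.16, SE 0.28, edgeR adjusted p = 0.201). Krt19, an epithelial keratin, went the other way (0.35, SE 0.34, edgeR adjusted p = 0.842), with overlapping groups.

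The 6 leukocyte markers summed to 12.1 to 19.6 CPM in Gata4 KD, 20.9 to 23.6 CPM in control and 18.6 to 27.5 CPM in Tbx20 KD. Without Csf1r, the macrophage growth factor receptor (log2 fold change -0.64, SE 0.17, edgeR adjusted p = 0.236), the sums overlapped, at 6.83 to 12.3 CPM in Gata4 KD and 9.85 to 13.0 CPM in control. Of the 6 leukocyte markers 5 lay below 0 in Gata4 KD against control and 1 above, with a median log2 fold change of -0.44. Besides Csf1r, Cd52 did not overlap control and was lower (-0.74, SE 0.36, edgeR adjusted p = 0.661). The endothelial sum ranged from 35.1 to 55.5 CPM over all libraries, its groups overlapping. Tek was its largest single part, at 20.7 to 35.7 CPM in control and 16.6, 16.2 and 33.5 CPM in Gata4 KD. Without Tek, left out after the values were seen, it was 20.5 to 21.8 CPM in Gata4 KD, above the 10.8 to 19.8 CPM of control and the 16.2 to 17.8 CPM of Tbx20 KD. The 6 endothelial markers did not move together in Gata4 KD against control, with 4 above 0 and 2 below. Those below were Tek (log2 fold change -0.34, SE 0.30) and Tie1 (-0.48, SE 0.35). Kdr, a receptor for vascular growth factor, stood at 5.45, 6.19 and 5.06 CPM in Gata4 KD, 2.75, 3.47 and 2.29 CPM in control, and 3.22, 3.04 and 2.68 CPM in Tbx20 KD. Its log2 fold change was 0.97 against control (SE 0.19, edgeR adjusted p = 0.0996) and 0.90 against Tbx20 KD (SE 0.13, edgeR adjusted p = 0.0258). The call of Kdr against Tbx20 KD was lost without any 1 library other than Gata4 KD c (edgeR adjusted p between 0.0528 and 0.142) and with the replicate block (0.0574), and it passed against control without control b (0.0362) and with DESeq2 (0.0019). Adipocyte markers, from a tissue where Dio2 is well known, summed to 5.75 to 8.59 CPM in Gata4 KD and 5.12 to 5.88 CPM in control, with 6 of 8 under 1 CPM in every library and Plin1 and Lep at 0. The part of these cells in the Dio2 level was not tested.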

How the data were processed

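The authors deposited expected counts per gene from RSEM, not normalized. Per the labels the submitters' processing notes name Bowtie, RSEM and the mouse build mm9, while the study's methods name GRCm38 and stranded counting; coordinates here are those of the GENCODE M21 annotation on GRCm38 for the same gene IDs (96.6% of 38924 IDs had a symbol). The members and lists were chosen with earlier results of these data known. Expected counts were rounded, filtered with filterByExpr within the 6 libraries of each comparison, scaled by TMM and tested with edgeR 4.0.16 (glmQLFit and glmQLFTest, R 4.3.3), with Benjamini-Hochberg adjustment over all genes tested and a threshold of 0.05. CPM values were scaled over all 9 libraries. The fit was tested on simulated data. Alternatives were DESeq2 1.42.0, limma-voom (limma 3.58.1), edgeR's exact test with a common dispersion, library size without TMM, other filters, all 9 libraries in 1 fit, a replicate block, and leaving out each library. For the cAMP list, Lrrn4 and Kdr they were added after the values were seen, as were the marker sums without Lrrn4, Csf1r or Tek. The text names the 8 members, list genes past the threshold, for each list up to 3 genes with the smallest p in Gata4 KD against control, and the 4 genes with the highest and 2 with the lowest r with Dio2 among genes of mean CPM 5 or more (log2 CPM with a prior count of 2). Hif1a, Gpx3, Myh6, Pck1, Atf3, Areg, Dusp1, the neighbours of Dio2 and single markers were named after their values were seen. The promoter windows are from RefSeq on GRCm38.p6; the PAMs were read from GENCODE transcripts. A few list genes that the naming rule would give are not reported here, though they remain in the counts.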

Additional observations from a re-analysis of the deposited data

How the results depend on the processing

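Dio2 kept its direction in all 3 comparisons under the settings tried; against control its log2 fold change in Gata4 KD was 3.71 to 3.74 across other settings and 3.60 to 3.92 with 1 library left out. The count of thyroid hormone genes called, 0 in each comparison, remained 0 in both comparisons with control. Between Gata4 KD and Tbx20 KD it became 3 with DESeq2, 3 with the exact test, and 0 to 1 with 1 library left out (Atp2a2 without Gata4 KD replicate c, log2 fold change 0.27, adjusted p = 0.0408). Small fold changes turned sign. Thrb in Gata4 KD against control was 0.00 with DESeq2 and -0.06 to 0.08 with 1 library left out, and Klf9 there was -0.05 to 0.18. In Tbx20 KD against control Thra was 0.00 with library size alone and 0.00 without a filter (-0.06 to 0.10 with 1 library left out), and Klf9 was 0.00 with library size alone and 0.00 with the replicate block (-0.09 to 0.16). Between the KDs Klf9 was -0.05 to 0.10 and Hr was -0.11 to 0.19. The cause was not tested.

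Counts over all genes depended on the method. Against control in Gata4 KD the 55 calls became 264 with DESeq2, 446 with the exact test, 121 without a filter and 148 with all 9 libraries in 1 fit; in Tbx20 KD the 1 call became 12, 104 and 2 with the first 3 of these; between the KDs the 208 calls became 743, 1054 and 324. With 1 library left out they ranged over 6 to 189, 1 to 5 and 22 to 801. The replicate letters did not pair the libraries (correlations of same-letter deviations from -0.17 to 0.255); with the replicate block 5, 2 and 101 genes were called, and none of the 67 thyroid hormone genes.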
